A study of Mus musculus with 9 samples.

Results

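The genes described here are the costimulatory members of the TNF receptor superfamily in regulatory T cells (Tregs), the CD4 T cells that depend on the transcription factor Foxp3 and restrain immune responses. The set held 9 genes: the receptor genes Tnfrsf4 (OX40), Tnfrsf18 (GITR), Tnfrsf9 (4-1BB), Tnfrsf8 (CD30), Tnfrsf25 (DR3), Tnfrsf1a (TNF receptor 1), Tnfrsf1b (TNF receptor 2) and Cd27, and the ligand gene Cd40lg (CD40 ligand). They were chosen by name, with earlier results of these data known. A row of the array table was taken as a gene's value where its transcript accession belongs to that symbol. A row was found for 8 of the 9 genes, among 21023 named genes on 31351 rows. Tnfrsf18 was matched to no row and was not analysed here.

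Treg RNA was measured on Affymetrix Mouse Gene 2.1 ST arrays, with 3 arrays in each of 3 groups, and the values are log2 expression values. The cells were CD4+ GFP+ cells, sorted after Percoll enrichment from Foxp3EGFP mice on the C57BL/6 background aged 8 to 12 weeks, in which green fluorescence marks cells that express Foxp3. Resolving lung Tregs came from lungs given lipopolysaccharide of Escherichia coli (O55:B5, 3 mg/kg) into the trachea, a model of acute lung injury, control lung Tregs from the lungs of uninjured mice, and resolving spleen Tregs from the spleens of lipopolysaccharide-treated mice. The sources used here do not give the day of harvest, how many mice stand behind an array, or whether cells were pooled. Lungs were digested with enzymes and spleens were dissociated mechanically, so organ and dissociation cannot be told apart wherever a lung group is set against spleen. Spleen of uninjured mice was not analysed here, so control lung against resolving spleen differs in injury as well as in organ.

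Receptors of this family sit in the cell membrane and are engaged by ligands that assemble as trimers, mostly on antigen-presenting cells. Most of them recruit TRAF adaptor proteins and switch on NF-kB, which raises the survival and division of the T cell, while TNF receptor 1 and DR3 carry a death domain and can also lead to cell death. Tregs are known for carrying more GITR, OX40 and TNF receptor 2 than resting conventional CD4 T cells, and signals through these receptors support Treg numbers. CD40 ligand is known mainly from activated conventional CD4 T cells, where it licenses B cells and dendritic cells.

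As facts of all 9 arrays, Foxp3 averaged 10.58 ± 0.16 in resolving lung, 10.67 ± 0.04 in control lung and 10.69 ± 0.05 in resolving spleen (log2 value, SD, n = 3 each). Ctla4 was higher in resolving lung and in control lung than in resolving spleen (log2 differences 1.14 and 1.04), Il2ra was lower in control lung than in resolving spleen (-0.37), and Cd4 and Cd3e passed in no comparison. All 8 markers of Tregs and T cells lay above the dim level in every array. The dim level is the 95th percentile of 915 olfactory receptor genes on an array, between 3.32 and 3.52. All 8 measured members also lay above it in all 9 arrays. Resolving lung replicate 1 stood apart: the mean log2 value over 9 measured macrophage markers was 6.75 on it, 4.57 and 4.55 on the other resolving lung arrays, 3.79 to 4.91 in control lung and 4.36 to 5.21 in resolving spleen. The mean over 8 stromal and endothelial markers was 5.43 on that array and 4.78 on control lung replicate 1, and between 3.11 and 3.52 on the other 7 arrays. Means over 8 epithelial markers ran from 5.18 to 5.93 in resolving lung, 6.56 to 7.58 in control lung and 3.40 to 4.34 in resolving spleen, and means over 8 B cell markers from 4.42 to 4.72 in resolving lung, 5.21 to 5.25 in control lung and 5.66 to 7.01 in resolving spleen. Of the 9 measured macrophage markers, only Siglecf was at or below the dim level in every array of all groups. All the others lay above it on resolving lung replicate 1. Of the dendritic cell markers, 5 of 6 were at or below it in all arrays. In such sorted samples, fewer cells of a type and less RNA per cell cannot be told apart.

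Between resolving and control lung, none of the 8 members passed a Benjamini-Hochberg adjusted p under 0.05 in limma's moderated test over all named genes (0 higher, 0 lower), where 0.457% of all genes passed (0.133% higher and 0.323% lower). At an unadjusted p under 0.05 the count was 3 of 8 members, namely Tnfrsf9, Tnfrsf8 and Cd27, against 14.0% of all genes. Between resolving lung and resolving spleen, 1 member passed, Cd27, which was lower in resolving lung, where 5.46% of all genes passed (2.64% higher and 2.82% lower). The members with an unadjusted p under 0.05 there were 3 of 8, namely Tnfrsf4, Tnfrsf1b and Cd27, against 18.8% of all genes. Between control lung and resolving spleen 0 of 8 members passed, where 6.16% of all genes did (2.67% higher and 3.49% lower). There, 4 of 8 had an unadjusted p under 0.05 in limma against 18.8% of all genes. The shares of all genes here and in the next paragraph include genes at or below the dim level, where no measured member lay. A fit limited to 9672 genes above that level on average called 238, 1517 and 1569 genes in the 3 comparisons. These are larger shares than over all genes, and the members' calls stayed the same (Cd27 limma adjusted p = 0.0182).

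Read array by array, Tnfrsf8 was higher and Cd27 lower on all 3 resolving lung arrays than on any control lung array, so 2 of 8 members had groups that did not overlap, against 16.3% of all genes. Against resolving spleen, Tnfrsf4 was higher and Cd27 lower on every resolving lung array, again 2 of 8 members, against 23.1% of all genes. Control lung and resolving spleen did not overlap for 4 of 8 members, against 25.5% of all genes: Tnfrsf4 was higher and Tnfrsf8, Tnfrsf25 and Cd27 were lower in control lung. The median log2 difference over the 8 members was 0.08 for resolving against control lung, 0.06 for resolving lung against resolving spleen and -0.17 for control lung against resolving spleen, beside medians over all genes of 0.01, 0.01 and 0.00. An exact permutation test between groups of 3 arrays has 0.1 as its smallest possible p. The labels do not say whether replicates were separate mice, so p-values here reflect the scatter among these arrays alone, part of which may be technical.

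**Figure D1:**
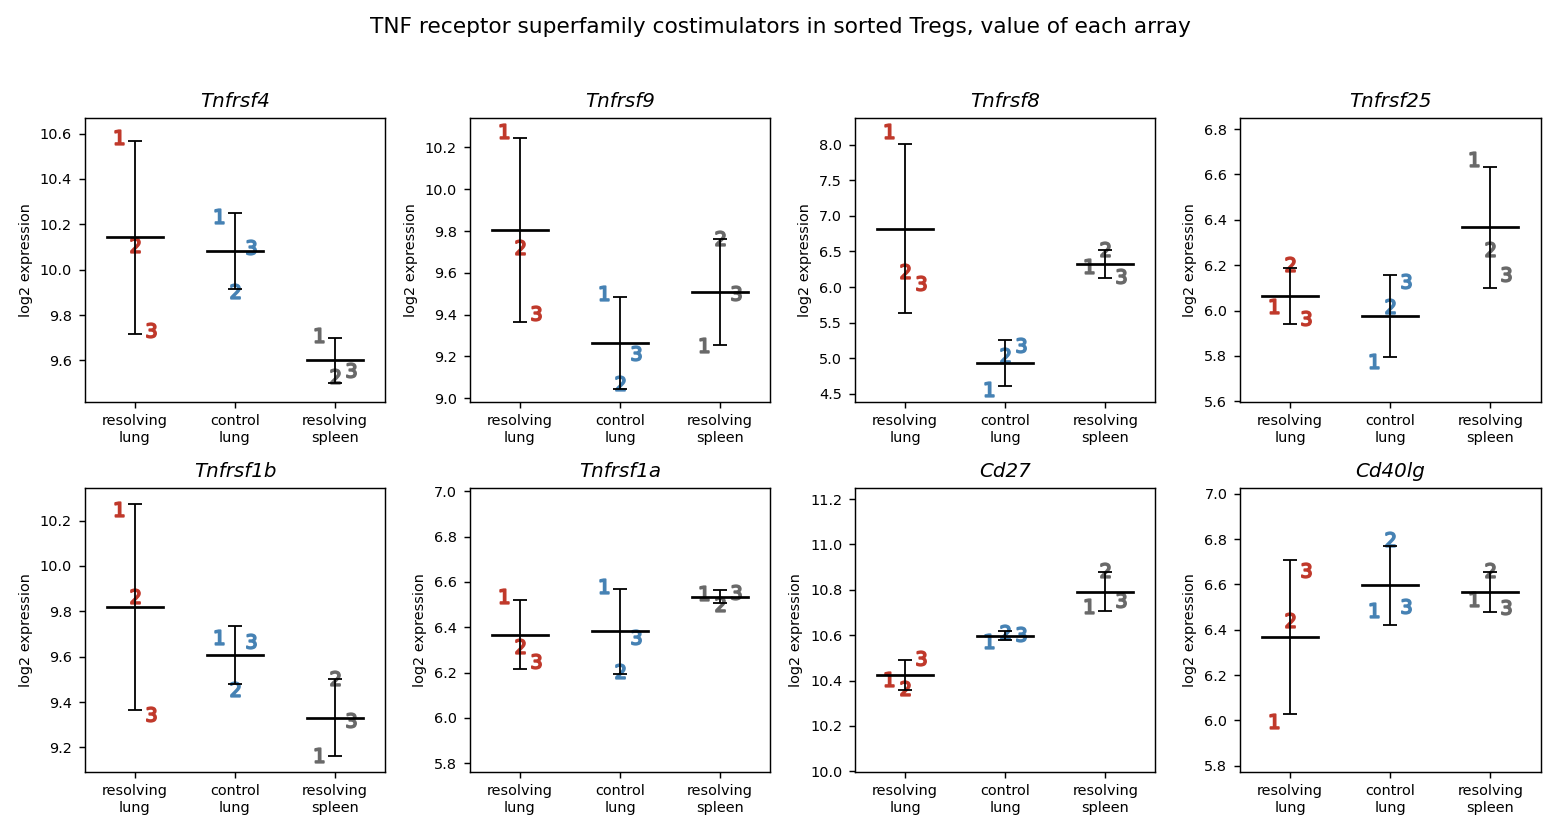
Log2 expression (vertical axes, scaled separately for each gene) of the 8 measured members on each array of resolving lung, control lung and resolving spleen (horizontal axes). Each numeral is 1 array and gives its replicate number, thick lines are group means and bars are SD (n = 3); resolving lung replicate 1 is the highest of all 9 arrays for Tnfrsf4, Tnfrsf9, Tnfrsf8 and Tnfrsf1b and the lowest for Cd40lg, and Cd27 steps up by group with no overlap.

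Of the 9 members, 6 lie on chromosome 4 (Tnfrsf4, Tnfrsf18, Tnfrsf9, Tnfrsf8, Tnfrsf25 and Tnfrsf1b), 2 on chromosome 6 (Tnfrsf1a and Cd27) and Cd40lg on the X chromosome. RefSeq promoter windows (assembly GRCm38.p6, from 250 bases before a transcription start to 50 after it) were matched for 8 members, 10 windows in all. The windows of the 3 members that the comparisons turn on are shown here 5′ to 3′: Tnfrsf8 and Tnfrsf9, with the 2 largest differences between resolving and control lung, and Cd27, the member that passed the test. Of the 2 windows of Tnfrsf9, the one shown was picked because it held matches. Capitals mark matches, found on either strand, to a kappaB motif (the NF-kB binding sequence), to TGANTCA (the AP-1 sequence) or to TTCNNNGAA (the STAT sequence).
Tnfrsf8 (chr4:145315115-145315414, minus strand): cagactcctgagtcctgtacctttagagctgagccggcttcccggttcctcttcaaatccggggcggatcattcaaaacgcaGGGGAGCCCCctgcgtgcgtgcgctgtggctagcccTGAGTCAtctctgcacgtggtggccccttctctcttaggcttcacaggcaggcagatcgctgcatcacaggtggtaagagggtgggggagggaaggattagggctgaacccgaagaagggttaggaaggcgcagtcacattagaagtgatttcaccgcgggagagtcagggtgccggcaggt
Tnfrsf9, inner start (chr4:150927749-150928048, plus strand): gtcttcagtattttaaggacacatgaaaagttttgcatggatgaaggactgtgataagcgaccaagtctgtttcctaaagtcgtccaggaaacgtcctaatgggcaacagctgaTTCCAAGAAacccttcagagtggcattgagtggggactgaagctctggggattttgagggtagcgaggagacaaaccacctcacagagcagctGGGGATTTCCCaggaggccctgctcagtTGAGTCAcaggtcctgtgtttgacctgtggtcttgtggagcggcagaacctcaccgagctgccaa
Cd27 (chr6:125236978-125237277, minus strand): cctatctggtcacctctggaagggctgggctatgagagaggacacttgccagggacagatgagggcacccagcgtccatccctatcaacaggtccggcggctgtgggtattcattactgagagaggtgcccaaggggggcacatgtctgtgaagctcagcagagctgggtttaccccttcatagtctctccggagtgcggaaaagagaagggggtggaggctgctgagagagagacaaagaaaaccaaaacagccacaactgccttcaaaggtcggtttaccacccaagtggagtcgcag
The Tnfrsf8 window held a kappaB match, GGGGAGCCCC, from 168 to 159 bases before the start and an AP-1 match, TGAGTCA, from 132 to 126 bases before it. At the inner start of Tnfrsf9, GGGGATTTCC and GGGATTTCCC overlap as kappaB matches between 43 and 33 bases before the start, with TGAGTCA from 15 to 9 bases and the STAT match TTCCAAGAA from 136 to 128 bases before it. The other Tnfrsf9 window (chr4:150919905-150920204, plus strand), at the outer start, and the Cd27 window matched none of the 3 motifs. Among 32851 RefSeq promoters of the same length, 4.51% held a kappaB match, 7.81% a TGANTCA match and 8.30% a TTCNNNGAA match. Among the members' 10 windows, 2 held a kappaB match, the same 2 a TGANTCA match and 5 a TTCNNNGAA match. These matches describe the letters of the windows and nothing was measured at them.

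Tnfrsf8 encodes CD30, a receptor that appears on activated T cells and signals through TRAF proteins. It showed the largest differences of the set between the 2 lung groups, with log2 values of 8.19, 6.22 and 6.06 in resolving lung, 4.57, 5.05 and 5.19 in control lung and 6.30, 6.54 and 6.15 in resolving spleen. All 3 resolving lung arrays lay above all 3 control lung arrays, and replicate 1 stood 1.97 above the next resolving lung array, which lay with the spleen arrays. The group means were 6.82 ± 1.19 in resolving lung, 4.94 ± 0.32 in control lung and 6.33 ± 0.20 in resolving spleen (SD, n = 3 each).

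The difference of resolving minus control lung was 1.88 on the log2 scale (SE 0.50, 95% confidence interval 0.74 to 3.03, 3.69-fold), and it did not pass the threshold (limma, adjusted p = 0.149). Without resolving lung replicate 1 it was 1.20 (adjusted p = 0.0574), and without replicate 1 of both lung groups 1.02 (adjusted p = 0.0787). Resolving lung and resolving spleen overlapped, with a log2 difference of 0.49 (interval -0.66 to 1.64, adjusted p = 0.686) that changed sign, to -0.19, without resolving lung replicate 1. Control lung lay below resolving spleen on every array, by a log2 difference of -1.39 (interval -2.54 to -0.24, 2.62-fold, limma adjusted p = 0.171). That last difference passed in fits that took resolving lung replicate 1 (adjusted p = 0.00367) or all resolving lung arrays (adjusted p = 0.0115) out of the shared estimate of spread. The order of means was thus resolving lung, resolving spleen and control lung, and the first 2 did not differ beyond their spread.

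Tnfrsf9 encodes 4-1BB, a costimulatory receptor induced by T cell receptor signals. Its log2 values were 10.28, 9.72 and 9.41 in resolving lung, 9.50, 9.07 and 9.22 in control lung and 9.26, 9.77 and 9.50 in resolving spleen. Replicates 1 and 2 of resolving lung lay above all control lung arrays, replicate 3 lay below control lung replicate 1, and the spleen arrays spread across both lung groups. Means were 9.80 ± 0.44 in resolving lung, 9.26 ± 0.22 in control lung and 9.51 ± 0.26 in resolving spleen (SD, n = 3 each). Resolving minus control lung gave a log2 difference of 0.54 (SE 0.23, interval 0.02 to 1.06, limma adjusted p = 0.341), and 0.30 without resolving lung replicate 1. The differences against resolving spleen were 0.29 for resolving lung (adjusted p = 0.570), which became 0.06 without resolving lung replicate 1, and -0.24 for control lung (adjusted p = 0.654).

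Tnfrsf4 encodes OX40, which sustains T cells after priming and is carried constitutively by mouse Tregs. Its log2 values were 10.59, 10.11 and 9.73 in resolving lung, 10.24, 9.91 and 10.10 in control lung and 9.71, 9.53 and 9.56 in resolving spleen. The 2 lung groups overlapped, and every lung array lay above every spleen array. Group means were 10.14 ± 0.43 in resolving lung, 10.08 ± 0.17 in control lung and 9.60 ± 0.10 in resolving spleen (SD, n = 3 each). Resolving lung exceeded resolving spleen by a log2 difference of 0.54 (SE 0.19, interval 0.10 to 0.99, 1.46-fold), which did not pass (limma adjusted p = 0.171). It was 0.32 without resolving lung replicate 1, and 0.75 without replicate 3 of that group, when it passed (adjusted p = 0.0434). For control lung minus resolving spleen the log2 difference was 0.48 (adjusted p = 0.225), and it passed when those 2 groups were fitted alone (adjusted p = 0.0466). Resolving and control lung differed by 0.06 (interval -0.38 to 0.51, adjusted p = 0.924), and by -0.16 without resolving lung replicate 1.

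Cd27 encodes a receptor carried by resting T cells, which signals through TRAF proteins when CD70 binds it. Its differences had the smallest standard error of the set, and its log2 values were 10.41, 10.37 and 10.50 in resolving lung, 10.58, 10.61 and 10.60 in control lung and 10.73, 10.89 and 10.76 in resolving spleen. No array of any group overlapped another group: resolving lung was lowest, control lung in between and resolving spleen highest. Cd27 averaged 10.42 ± 0.07 in resolving lung, 10.60 ± 0.02 in control lung and 10.79 ± 0.09 in resolving spleen (SD, n = 3 each). It was lower in resolving lung than in resolving spleen by a log2 difference of -0.37 (SE 0.07, interval -0.52 to -0.22, 1.29-fold, limma adjusted p = 0.0182), the single difference of the set that passed.

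The Cd27 value was -0.36 without resolving lung replicate 1 (adjusted p = 0.0433) and kept its side of the threshold with the replicate number as a block in the fit of 9 arrays (adjusted p = 0.0455). That block also joined control lung arrays, which were not found to pair by number. In the paired fit of the 2 groups alone, with the same block, the Cd27 value missed the threshold (adjusted p = 0.139). It also missed the threshold without resolving lung replicate 2 (adjusted p = 0.0573), resolving spleen replicate 2 (0.0545) or resolving spleen replicate 3 (0.0518), without replicate 1 of both lung groups (0.0585) and with the 2 groups fitted alone (0.0569). Resolving minus control lung gave -0.17 (interval -0.33 to -0.02, adjusted p = 0.283) and control lung minus resolving spleen -0.19 (interval -0.34 to -0.04, adjusted p = 0.151). The means over the B cell markers had the same order of groups. Among these markers, Cd79a fell in resolving lung against resolving spleen by 1.65 on the log2 scale (adjusted p = 0.00910), and Pax5 was at or below the dim level on all resolving lung arrays. The part of B cell transcripts in the Cd27 values was not tested.

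Tnfrsf25 encodes DR3, the death-domain receptor for TL1A, which expands Tregs when it is engaged in mice. Its log2 values were 6.02, 6.20 and 5.97 in resolving lung, 5.78, 6.02 and 6.13 in control lung and 6.67, 6.27 and 6.16 in resolving spleen. The lung groups overlapped, and all control lung arrays lay below all spleen arrays, by 0.03 at the nearest pair. Means were 6.06 ± 0.12 in resolving lung, 5.98 ± 0.18 in control lung and 6.37 ± 0.27 in resolving spleen (SD, n = 3 each). The log2 difference was 0.09 for resolving against control lung (adjusted p = 0.838), -0.30 for resolving lung against resolving spleen (adjusted p = 0.322) and -0.39 for control lung against resolving spleen (interval -0.73 to -0.06, adjusted p = 0.190), and 0 of these passed in limma.

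The 2 receptors for TNF itself were both measured. Tnfrsf1b encodes TNF receptor 2, the TNF receptor through which TNF supports Tregs, and had log2 values of 10.25, 9.87 and 9.35 in resolving lung, 9.69, 9.46 and 9.67 in control lung and 9.17, 9.51 and 9.32 in resolving spleen. Replicates 1 and 2 of resolving lung were the highest arrays, replicate 3 lay among the spleen arrays, and the groups overlapped in every comparison. Its means were 9.82 ± 0.45 in resolving lung, 9.61 ± 0.13 in control lung and 9.33 ± 0.17 in resolving spleen (SD, n = 3 each). Resolving lung differed from resolving spleen by 0.49 on the log2 scale (SE 0.21, interval 0.02 to 0.96, limma adjusted p = 0.247), a value that was 0.28 without resolving lung replicate 1 and 0.73 without replicate 3, when it passed (adjusted p = 0.0388). Against control lung the difference of resolving lung was 0.21 (adjusted p = 0.700), and 0.00 without resolving lung replicate 1.

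Tnfrsf1a, the widely expressed TNF receptor 1, had log2 values of 6.54, 6.32 and 6.25 in resolving lung, 6.58, 6.21 and 6.36 in control lung and 6.55, 6.50 and 6.55 in resolving spleen. The arrays of all 3 groups overlapped. Its means were 6.37 ± 0.15 in resolving lung, 6.38 ± 0.19 in control lung and 6.53 ± 0.03 in resolving spleen (SD, n = 3 each), the log2 differences were -0.01 for resolving against control lung (interval -0.26 to 0.24), -0.17 for resolving lung against resolving spleen (interval -0.42 to 0.08) and -0.15 for control lung against resolving spleen (interval -0.40 to 0.10), and limma's adjusted p was at least 0.489. Without resolving lung replicate 1 the difference of resolving lung from resolving spleen was -0.25 (adjusted p = 0.270), with groups 0.18 apart at the nearest arrays, and that from control lung -0.10.

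Cd40lg, the one ligand among the members, encodes CD40 ligand. Its log2 values were 6.00, 6.45 and 6.67 in resolving lung, 6.49, 6.80 and 6.50 in control lung and 6.54, 6.66 and 6.50 in resolving spleen. Resolving lung replicate 1 was the lowest of the 9 arrays and the other 8 lay within 0.35 of each other. Means were 6.37 ± 0.34 in resolving lung, 6.59 ± 0.18 in control lung and 6.57 ± 0.09 in resolving spleen (SD, n = 3 each), and resolving minus control lung gave -0.23 (interval -0.60 to 0.15, limma adjusted p = 0.591), or -0.04 without that array. Resolving lung minus resolving spleen gave -0.20 (adjusted p = 0.608), or -0.01 without it, and control lung minus resolving spleen 0.03 (adjusted p = 0.960). Cd40lg lies on the X chromosome, and Xist, which is transcribed from the inactive X, read 2.44 on resolving lung replicate 1, 2.33 on resolving spleen replicate 1 and 8.23 to 9.13 on the other 7 arrays. On resolving spleen replicate 1, Cd40lg lay between the other spleen arrays. The part of sex in the Cd40lg values was not tested.

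**Figure D2:**
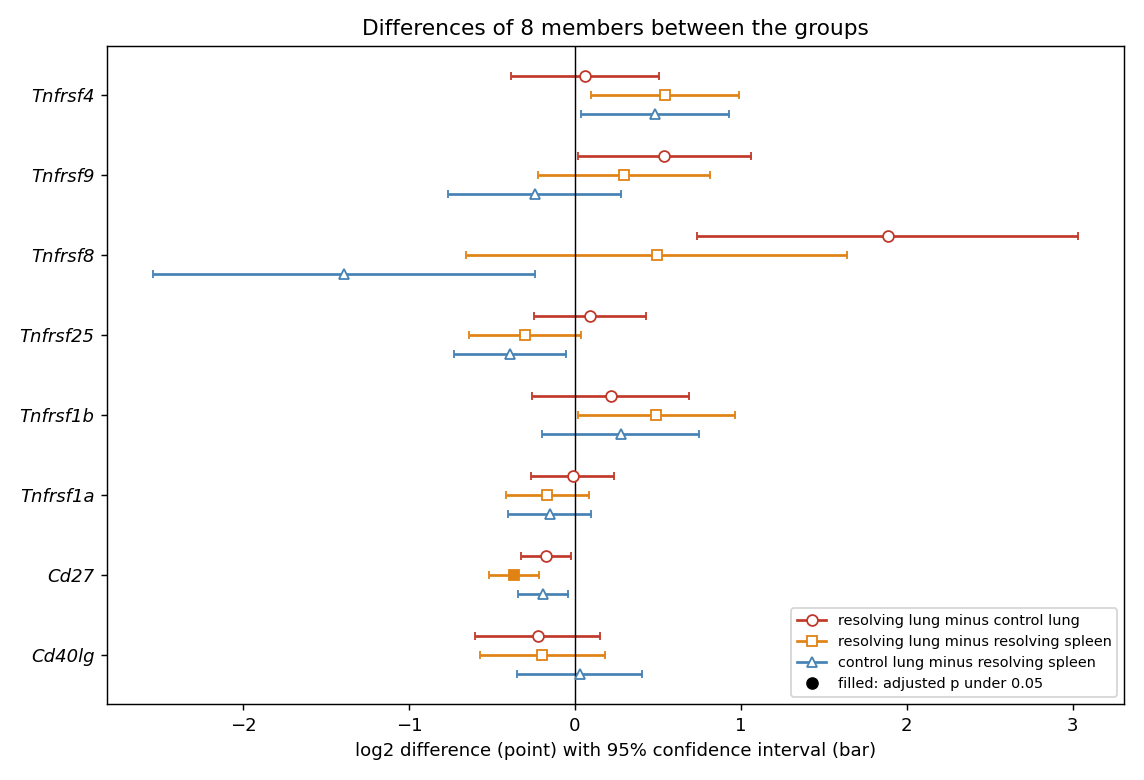
Log2 differences (horizontal axis) of the 8 measured members for resolving lung minus control lung (circles), resolving lung minus resolving spleen (squares) and control lung minus resolving spleen (triangles), with 95% confidence intervals from limma as bars. The filled symbol is the single difference with an adjusted p under 0.05, Cd27 in resolving lung minus resolving spleen at -0.37; Tnfrsf8 has the widest intervals.

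Resolving lung replicate 1 stood at an extreme for most members. It was the highest of 9 arrays for Tnfrsf4, Tnfrsf9, Tnfrsf8 and Tnfrsf1b, the lowest for Cd40lg, and within the range of the others for Tnfrsf25, Tnfrsf1a and Cd27. The gap to the nearest resolving lung array was 1.97 on the log2 scale for Tnfrsf8 and 0.55 for Tnfrsf9, against gaps of 0.16 and 0.32 between the other 2 arrays of the group. On the same array the mean log2 value of 13 effector Treg genes was 9.06, against 8.62 and 8.39 on the other resolving lung arrays, 7.99 to 8.26 in control lung and 7.45 to 7.79 in resolving spleen. The mean of 8 resting Treg genes was 7.78 there, against 8.88 and 9.05 on the other resolving lung arrays, 9.29 to 9.46 in control lung and 9.13 to 9.23 in resolving spleen. The means over macrophage markers and over stromal and endothelial markers were highest on this array as well. So was the mean over 5 neutrophil markers, at 4.88 against 3.20 to 4.12 on the other arrays. Single markers differed. Pecam1 was lowest on this array (8.04). Cdh5 (7.22), Kdr (4.85) and the dim Siglecf were highest on control lung replicate 1, and Retnlg (4.32) on resolving spleen replicate 1. Xist read 2.44 on resolving lung replicate 1 and 8.23 to 9.13 on the other lung arrays. The part of such transcripts, or of sex, in the members' values was not tested. With that array left out, Tnfrsf8 still lay above control lung on both remaining arrays, by 0.87 at the nearest pair.

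**Figure D3:**
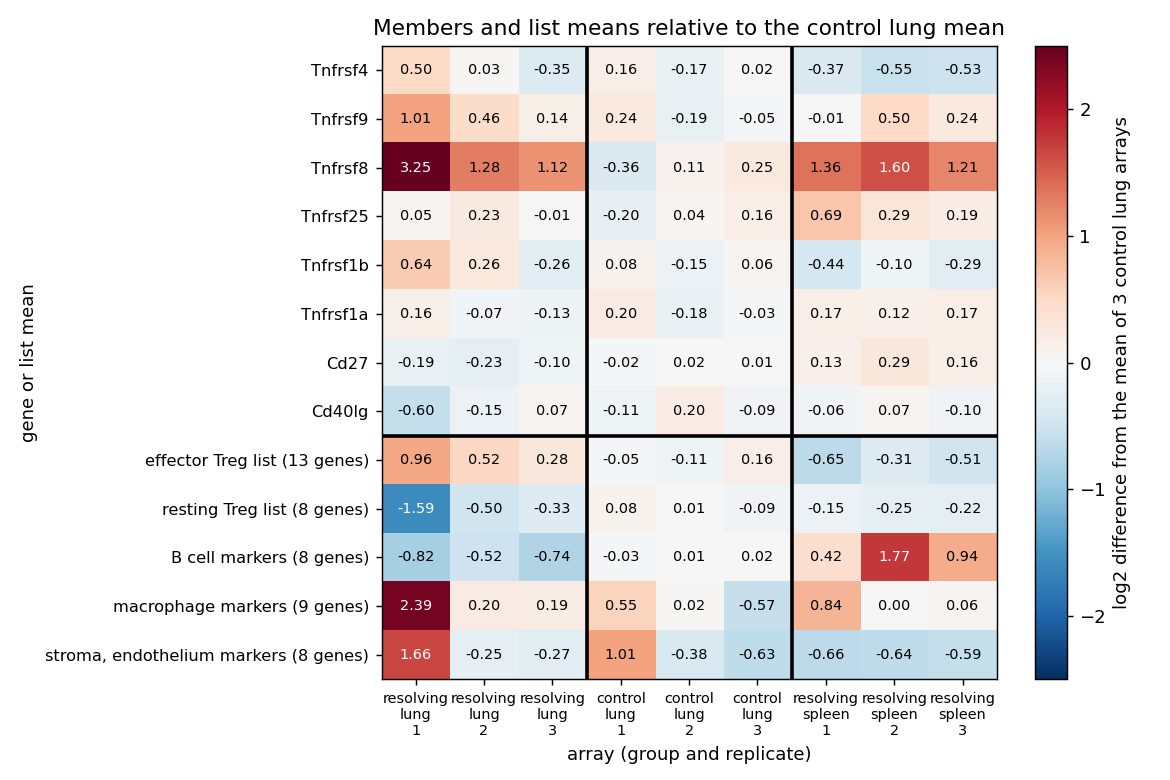
Difference of each array from the mean of the 3 control lung arrays (log2, colour and printed value), for the 8 measured members (upper rows) and for the means of 5 gene lists (lower rows); columns are the arrays of resolving lung, control lung and resolving spleen. Tnfrsf8 is above the control lung mean by 1.12 to 3.25 on resolving lung arrays and by 1.21 to 1.60 on spleen arrays, and resolving lung replicate 1 stands out in the macrophage and the stroma and endothelium rows.

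Across the 9 arrays, which share groups and the same resolving lung replicate 1, some members ran in parallel. Tnfrsf4 and Tnfrsf1b had a Pearson correlation of 0.88 over 9 arrays and 0.75 over the 8 arrays without resolving lung replicate 1, and Cd27 ran against Tnfrsf4 at -0.76 and -0.71. Tnfrsf9 and Tnfrsf8 correlated at 0.80 and 0.50. The pair Tnfrsf4 and Tnfrsf8 changed sign, with 0.19 over 9 arrays and -0.74 over 8. Cd40lg ran opposite to Tnfrsf9 (-0.79) and Tnfrsf1b (-0.78) over 9 arrays, and less so over 8 (-0.39 and -0.38). These are descriptions of 9 samples in 3 groups and were not tested.

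Among 9339 named genes above the dim level on average, the 3 whose log2 values over the 9 arrays were most like each member were listed by Pearson r. For Tnfrsf8 they were Rgs3 (0.98 over 9 arrays, 0.97 without resolving lung replicate 1), Cyp4v3 (0.98 and 0.95) and Il12rb1 (0.98 and 0.96). Tnfrsf9 was most like Batf (0.95 and 0.86), Golga7 (0.94 and 0.91) and Ctsz (0.94 and 0.84). For Tnfrsf4 the list was Map2k3 (0.97), Furin (0.96) and Cox4i1 (0.96), and for Tnfrsf1b Siva1 (0.97), Tmbim1 (0.96) and Sdhd (0.96), all 6 still at 0.91 or above over 8 arrays. Cd27 was most like Bcl9 (0.97), H2-Oa (0.97) and the B cell gene Cd79a (0.97). Tnfrsf25 ran closest to Prdm11 (0.98), Ring1 (0.96) and Srd5a3 (0.95), and Tnfrsf1a to Fkbp4 (0.91), Acadsb (0.89) and Arxes2 (0.88). Cd40lg was most like Ppargc1b (0.99), Snord2 (0.96) and Cdk19 (0.96). Likeness over so few arrays carries no test.

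The binding partners of the members were measured as well, 9 of 9 listed. Transcripts of 4 of them lay above the dim level on every array: Lta and Tnf, which engage the TNF receptors, Tnfsf8, the CD30 ligand, and Tnfsf9, the 4-1BB ligand. The OX40 ligand Tnfsf4, the GITR ligand Tnfsf18, the DR3 ligand Tnfsf15 and the CD27 ligand Cd70 lay at or below the dim level on all 9 arrays, and Cd40 lay above it on 2 arrays. Past the threshold there was 0 of 9 between resolving and control lung, 1 of 9 (lower) between resolving lung and resolving spleen, and 1 of 9 (lower) between control lung and resolving spleen. That gene was Lta both times. Over all genes 0.457%, 5.46% and 6.16% passed in these comparisons. The median differences over the list were 0.14, -0.02 and -0.01, beside 0.01, 0.01 and 0.00 over all genes. Of the 19 listed pathway genes called here and below between resolving lung and resolving spleen, 4 kept the call in the paired fit of those 2 groups alone (Lta, Tnfsf14, Ccr2 and Id3), and the other 15 had adjusted p-values of 0.0501 to 0.135 in it.

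Lta, lymphotoxin alpha, had log2 values of 5.66, 5.83 and 5.79 in resolving lung, 4.95, 5.37 and 4.97 in control lung and 6.90, 6.75 and 6.83 in resolving spleen. No group overlapped another: spleen was highest, resolving lung in between and control lung lowest. Lta was lower in resolving lung than in resolving spleen by a log2 difference of -1.07 (SE 0.12, interval -1.33 to -0.80, 2.10-fold, limma adjusted p = 0.00308). Control lung was below resolving spleen by -1.73 (SE 0.12, 3.32-fold, limma adjusted p = 4.43e-04). Both calls held in all 9 fits that each left out 1 array. Resolving lung exceeded control lung by 0.66 (1.59-fold, limma adjusted p = 0.0605), which missed the threshold and passed without control lung replicate 2 (adjusted p = 0.0310).

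Tnfsf8, which encodes the ligand of CD30, had log2 values of 4.57, 6.46 and 6.79 in resolving lung, 7.35, 7.43 and 7.00 in control lung and 7.25, 7.07 and 7.17 in resolving spleen. Every resolving lung array lay below every array of the other groups, replicate 1 by far the lowest, where Tnfrsf8 itself was highest. The log2 difference of resolving minus control lung was -1.32 (SE 0.49, interval -2.45 to -0.19, limma adjusted p = 0.274), and that of resolving lung minus resolving spleen -1.22 (adjusted p = 0.227). Neither passed. Without resolving lung replicate 1 they were -0.63 (adjusted p = 0.152) and -0.54 (adjusted p = 0.0971). Tnf had log2 values of 8.65, 7.47 and 6.96 in resolving lung, 7.89, 7.28 and 7.00 in control lung and 8.50, 8.53 and 8.15 in resolving spleen. Its 2 lung groups overlapped, and all control lung arrays lay below the spleen arrays, by a log2 difference of -1.01 (SE 0.41, limma adjusted p = 0.226), which passed without resolving lung replicate 1 (adjusted p = 0.0466). Tnfsf9 averaged 5.08 ± 0.51 in resolving lung, 4.75 ± 0.26 in control lung and 4.76 ± 0.03 in resolving spleen (SD, n = 3 each), with overlapping groups and resolving lung replicate 1 the highest array at 5.65.

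**Figure D4:**
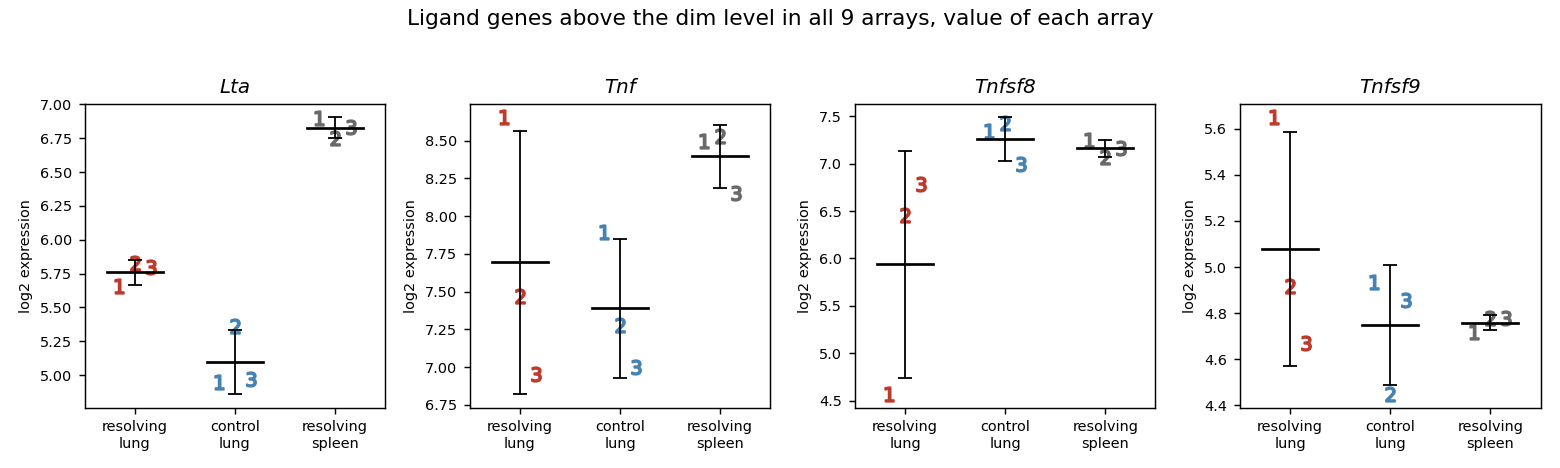
Log2 expression (vertical axes, scaled separately) of the 4 ligand genes above the dim level on all 9 arrays, for resolving lung, control lung and resolving spleen (horizontal axes). Numerals are replicate numbers of single arrays, thick lines means and bars SD (n = 3); for Lta the 3 groups do not overlap, with resolving lung between control lung and spleen, and for Tnfsf8 all resolving lung arrays are lowest.

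Of 19 further receptor genes of the family, 17 were measured and 7 lay above the dim level on all arrays. Passing members numbered 0 between resolving and control lung, 1 (higher) between resolving lung and resolving spleen, and 2 (1 higher, 1 lower) between control lung and resolving spleen. The shares of all genes that passed were 0.457%, 5.46% and 6.16%. Tnfrsf10b, the mouse TRAIL death receptor, had log2 values of 6.98, 7.28 and 6.51 in resolving lung, 7.91, 7.76 and 7.81 in control lung and 5.66, 5.28 and 5.43 in resolving spleen, with no overlap between groups. It was higher than in resolving spleen by 1.47 in resolving lung (SE 0.18, 2.76-fold, limma adjusted p = 0.00507, or 0.0772 in the paired fit of the 2 groups alone) and by 2.37 in control lung (SE 0.18, 5.17-fold, limma adjusted p = 4.47e-04). Resolving minus control lung was -0.90 (adjusted p = 0.0821). Fas, the receptor for Fas ligand, was lower in control lung than in resolving spleen by a log2 difference of -0.50 (limma adjusted p = 0.0445), a call that held in 2 of 9 fits that each left out 1 array. Tnfrsf21 (death receptor 6) was at or below the dim level on all control lung arrays and above it on 1 of 3 resolving lung arrays, replicate 1, and is given no fold. A large difference that missed the threshold was that of Tnfrsf13c, the BAFF receptor of B cells, with -1.28 between resolving lung and resolving spleen (adjusted p = 0.0863).

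Among 9 other ligand genes of the family, 7 were measured. None passed between resolving and control lung, where Tnfsf11 (RANK ligand) differed by 0.94 (adjusted p = 0.203; 0.54 without resolving lung replicate 1) and Tnfsf10 (TRAIL) by 0.79 (adjusted p = 0.0683). Against resolving spleen, 2 fell in resolving lung, Tnfsf14 (LIGHT) with a log2 difference of -0.73 and Ltb, the partner of Lta in the membrane lymphotoxin, with -0.54 (limma adjusted p = 0.0463 and 0.0185), calls that held in 2 and 5 of 9 fits that each left out 1 array. With the replicate number as a block, Tnfsf14 missed the threshold in the fit of 9 arrays (adjusted p = 0.0694) and passed in the fit of the 2 groups alone (0.0496), where Ltb missed it (0.0837). In control lung against resolving spleen 4 were lower, Tnfsf11 (-1.24), Tnfsf14 (-1.11), Ltb (-0.73) and Tnfsf10 (-0.63), and Fasl was higher (0.49). Of these 5, Tnfsf14 and Ltb passed in all 9 fits that each left out 1 array, Fasl in 3, Tnfsf11 in 2 and Tnfsf10 in 2. The list's median differences were 0.27, -0.08 and -0.63, beside 0.01, 0.01 and 0.00 over all genes. Beside the list's counts, 0.457%, 5.46% and 6.16% of all genes passed. In control lung against resolving spleen 3.49% passed as lower and 2.67% as higher.

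Downstream of the receptors, 20 of 22 genes for adaptors and their regulators were measured, all above the dim level on every array. Between resolving and control lung 1 passed: Birc3, a ubiquitin ligase that TRAF proteins bring to the receptor, was lower by a log2 difference of -0.53 (SE 0.07, limma adjusted p = 0.0339), with values of 8.11, 8.32 and 8.20 in resolving lung against 8.68, 8.77 and 8.77 in control lung. The groups did not overlap, and the call held in 2 of 9 fits that each left out 1 array. Resolving lung exceeded resolving spleen for 2, Tnfaip3 (the NF-kB feedback inhibitor A20) by 1.68 (3.20-fold, limma adjusted p = 0.0104) and Birc2 by 0.50 (adjusted p = 0.0181, held in 7 of 9 such fits). In the paired fit of the 2 groups alone neither passed (adjusted p = 0.107 and 0.0758). Control lung exceeded resolving spleen for 4, Tnfaip3 by 2.07 (4.20-fold, limma adjusted p = 0.00373), Birc3 by 0.76, Birc2 by 0.65 and Traf1 by 0.60, while Casp8 was lower by a log2 difference of -0.61, and these 5 calls held in all 9 such fits. Traf1, the adaptor induced by NF-kB, differed by -0.51 between resolving and control lung (adjusted p = 0.0612) and Siva1, an adaptor of CD27, by 0.66 between resolving lung and resolving spleen (adjusted p = 0.252; 0.38 without resolving lung replicate 1). Median differences over this list were -0.06, 0.02 and -0.01. Among all genes 0.457%, 5.46% and 6.16% passed, or 238, 1517 and 1569 of 9672 in the filtered fit.

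Of 15 NF-kB pathway genes 13 were measured, all above the dim level on every array. Between resolving and control lung 12 of the 13 differences were negative and 2 passed as lower, the subunits Rel (-0.70, limma adjusted p = 0.0478) and Rela (-0.35, limma adjusted p = 0.0498). Both missed the threshold in each of the 9 fits that left out 1 array (adjusted p between 0.0511 and 0.144). Rel values were 9.44, 9.40 and 9.12 in resolving lung, against 10.17, 9.91 and 9.98 in control lung and 9.50, 9.26 and 9.36 in resolving spleen. Every control lung array was above the rest. Against resolving spleen, Rela was lower in resolving lung (-0.42, adjusted p = 0.00606) and Nfkbiz, a nuclear regulator of NF-kB, higher (0.65, adjusted p = 0.0202, held in 6 of 9 fits that left out 1 array), and in the paired fit of the 2 groups alone both missed the threshold (adjusted p = 0.0918 and 0.0509). In control lung against resolving spleen 4 were higher: Nfkbiz (0.87), Rel (0.65), the inhibitor Nfkbia (0.58) and the kinase partner Tab2 (0.33), of which Nfkbia held in 3 and Tab2 in 2 of the 9 fits. Beside these counts, 0.457%, 5.46% and 6.16% of all genes passed, or 238, 1517 and 1569 of 9672 in the filtered fit. Median differences of the list were -0.09, -0.05 and 0.10, beside 0.01, 0.01 and 0.00 over all genes. Digestion of the lungs and mechanical dissociation of the spleens cannot be told apart from organ for these stimulus-responsive genes.

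Survival genes known to respond to costimulation were measured for 7 of 8. Between resolving and control lung none passed, and Bcl2l11, which encodes the pro-apoptotic protein Bim, had the largest difference at -1.23 (adjusted p = 0.0599). Without resolving lung replicate 1 the Bcl2l11 difference was -0.97 and passed (adjusted p = 0.0495). Its log2 values were 6.10, 6.97 and 6.79 in resolving lung, 8.03, 7.72 and 7.80 in control lung and 6.32, 6.54 and 6.68 in resolving spleen. Control lung lay above both other groups, and above resolving spleen by 1.34 (2.53-fold, limma adjusted p = 0.0100, held in all 9 fits that left out 1 array). Mcl1 was lower in control lung than in resolving spleen (-0.34, adjusted p = 0.0207, held in 4 of 9). Birc5, which encodes survivin and marks dividing cells, was higher in resolving lung than in resolving spleen (1.59, 3.00-fold, adjusted p = 0.0109, or 0.0501 in the paired fit of the 2 groups alone). Bcl2 differed by -1.36 in the same comparison (adjusted p = 0.0989), and without resolving lung replicate 1 the value was -0.80 and passed (adjusted p = 0.0118). Between resolving and control lung Bcl2 differed by -0.82 (adjusted p = 0.406), or -0.27 without that array. The list's medians were 0.16, 0.11 and -0.08. Over all genes the shares that passed were 0.457%, 5.46% and 6.16%. Of 4 genes that govern the shedding of TNF and its receptors, all measured, 0 passed in any comparison, and Adam17, the main sheddase, differed by 0.21, 0.14 and -0.07, with medians of 0.07, 0.14 and 0.03 for the list. Without resolving lung replicate 1 the first 2 of these Adam17 values were 0.13 and 0.06. Timp3, an inhibitor of Adam17, lay above the dim level on 2 of 9 arrays, replicate 1 of resolving lung (3.94) and of control lung (5.04). Its difference of -0.70 between resolving and control lung (limma adjusted p = 0.666), or -1.20 without resolving lung replicate 1, rests mostly on such dim values. It is given no fold.

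Effector and resting Treg genes were read beside the members. Of 14 effector Treg genes 13 were measured. Between resolving and control lung 0 passed, though all 13 differences were positive, with a median of 0.58 beside 0.01 over all genes. The largest were Lag3 at 1.46 (limma adjusted p = 0.0739) and Havcr2 at 0.98 (limma adjusted p = 0.189). Without resolving lung replicate 1, the array with the highest mean of these genes, they were 1.16 (adjusted p = 0.0982) and 0.73 (adjusted p = 0.369). Against resolving spleen, 9 of 13 rose in resolving lung, where 5.46% of all genes passed, or 1517 of 9672 in the filtered fit. They were Havcr2 (2.07), Ccr2 (1.82), Gzmb (1.73), Itgae (1.44), S100a4 (1.30), Icos (1.16), Prdm1 (1.07), Tigit (1.00) and Cxcr3 (0.97). The list median was 1.07. For resolving and control lung the share of all genes that passed was 0.457%, and for control lung and resolving spleen 6.16%. Because these lists were chosen with earlier results of these data known, setting their counts beside all genes is no test. The calls of Prdm1 and Tigit held in 2 of 9 fits that each left out 1 array, and with the replicate number as a block in the fit of 9 arrays Prdm1 missed the threshold (adjusted p = 0.0583). In the paired fit of the 2 groups alone Ccr2 passed (0.0496) and the other 8 had adjusted p-values from 0.0568 (Icos) to 0.135 (Prdm1). Control lung exceeded resolving spleen for 4 (Icos, Ccr2, Itgae and Gzmb) and was lower for Lag3 (-1.49), with a median of 0.66, and of these 5 calls Gzmb held in 4 and Lag3 in 5 of the 9 fits. Of 9 resting Treg genes 8 were measured, and their medians were -0.73, -0.45 and 0.31, beside 0.01, 0.01 and 0.00 over all genes. Of these, 0 passed between resolving and control lung, and the largest differences there were those of Ccr7 (-1.55, adjusted p = 0.132) and Satb1 (-1.42, adjusted p = 0.107). Without resolving lung replicate 1 Ccr7 was at -1.01 and passed (adjusted p = 0.0428). Id3 alone of the list passed against spleen with all 9 arrays, lower than in resolving spleen in resolving lung (-1.70, adjusted p = 0.00312) and in control lung (-1.56, adjusted p = 0.00287). Whether the members' differences follow these genes was not tested.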

How the data were processed

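Log2 expression values, 1 column per array, were used as deposited by the authors. Affymetrix Expression Console, RMA (background correction, normalization between arrays and summary of probes) and Partek are named in the submitters' processing notes, versions not given in the sources used here, and the log2 scale was read from the values (1.07 to 12.85). RMA makes arrays alike in distribution, so a shift shared by most genes would not be seen, and it compresses changes of dim genes. Array number limits the precision.

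Rows were named through RefSeq transcript accessions (GRCm38.p6 gene list, used for names); 10294 rows (32.8%) stayed unnamed and out of the tests. Where a gene had more than 1 row (34 genes), its brightest row on average stood for it. All 9 arrays were fitted with limma 3.58.1 in R 4.3.3 (lmFit, eBayes, 6 residual and 2.29 prior degrees of freedom), with two-sided p-values adjusted by Benjamini-Hochberg over 21023 genes, threshold 0.05, no fold minimum. The fit was tested on simulated data. Groups came from sample titles; the descriptions of spleen replicates 2 and 3 carry the same number, but their arrays differ as other replicates do.

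The members and lists were chosen with earlier results of these data known. Named were the members, the 3 genes most like each member, and Foxp3, Cd4, Cd3e, Il2ra and Ctla4 as checks. List genes were named if past the threshold or among the 2 largest differences of a list. B cell markers beside Cd27, and Xist beside Cd40lg and resolving lung replicate 1, were named after their values were seen. Deviations from group means correlated between same-numbered arrays of resolving lung and resolving spleen at 0.17, 0.13 and 0.16. The rule used (above 0.1 in every pair) treats these as paired, which the labels do not state. Different-numbered arrays of these groups ran from -0.14 to 0.02. For resolving and control lung the same-numbered values were 0.29, 0.07 and 0.10, and for control lung and spleen 0.08, -0.06 and 0.05. Those comparisons were not treated as paired. Some different-numbered lung arrays correlated as much, control lung 2 with resolving lung 3 at 0.18 and control lung 3 with resolving lung 2 at 0.20. Alternatives were all rows, a filter on dim genes, median centring, quantile normalization, trend and robust variance, array weights, the 2 groups alone, the replicate block, the mean of a gene's rows and each array left out. Leaving out replicate 1 of both lung groups, and the block with 2 groups alone, were added after seeing the data.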

Additional observations from a re-analysis of the deposited data

How the results depend on the processing

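Of the 8 members' values under alternatives, 438 kept their direction and side of the threshold, 6 gained and 6 lost the threshold, and 14 changed sign. Some alternatives, such as leaving out an array of the group not compared, leave a difference unchanged by design. All member differences but 1 also missed the threshold at the outset, so the 438 is no measure of robustness. For resolving lung minus resolving spleen, 1 member passed; 0 passed with the 2 groups alone, 0 without replicate 1 of both lung groups and 0 with the 2 groups alone and the replicate block (Cd27 adjusted p = 0.139), and leaving out 1 array gave 0 to 3, the 3 without resolving lung replicate 3 being Tnfrsf4, Tnfrsf1b and Cd27. For control lung minus resolving spleen, 0 passed; 2 passed with the 2 groups alone (Tnfrsf8 and Tnfrsf4), 1 (Tnfrsf8) without replicate 1 of both lung groups, and leaving out 1 array gave 0 to 1. For resolving minus control lung 0 members passed under all 19 alternatives. Among the sign changes, Tnfrsf4 in resolving minus control lung was -0.0143 with array weights, -0.0827 without replicate 1 of both lung groups and -0.1607 to 0.2646 with 1 array left out; Tnfrsf1a was 0.0007 without replicate 1 of both lung groups and -0.1014 to 0.0859 with 1 array left out. With 1 array left out, Tnfrsf25 ran from -0.011 to 0.1671, Tnfrsf1b from -0.0001 to 0.4519 and Timp3 from -1.1996 to 0.0116 in the same comparison, and Cd40lg from -0.0726 to 0.0838 in control lung minus resolving spleen. Tnfrsf8 in resolving lung minus resolving spleen was -0.1907 without replicate 1 of both lung groups and -0.1907 to 0.8749 with 1 array left out. The causes were not tested. The replicate block in the fit of 9 arrays left the members' calls as they were (0, 1 and 0, Cd27 adjusted p = 0.0455). It also joined control lung arrays, which were not found to pair by number, so it is no test of Cd27 under pairing. For resolving lung minus resolving spleen the rule above treated the arrays as paired. There, Prdm1 and Tnfsf14 were the listed pathway calls lost with the block in the fit of 9 arrays. The paired fit of those 2 groups alone ended 15 of 19 such calls. Over all genes the replicate block in the fit of 9 arrays called 15, 982 and 1126, against 96, 1148 and 1295 without the block. For resolving minus control lung, the 2 groups alone called 0, array weights 63, the filter on dim genes 238, leaving out replicate 1 of both lung groups 15, and leaving out 1 array 4 to 212. For resolving lung minus resolving spleen, the 2 groups alone called 704, and 175 with the block, and leaving out 1 array called 508 to 1131. For control lung minus resolving spleen leaving out 1 array called 681 to 1793. The causes of these shifts were not tested.

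Limits: 3 arrays a group leave wide intervals, such as 0.74 to 3.03 for Tnfrsf8 in resolving minus control lung. Transcript levels do not give receptor protein at the cell surface, and RMA compresses dim genes, several ligands among them.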
